A study of Mus musculus with 42 samples.

Results

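The 9 genes described here, Axin2, Sp5, Nkd1, Nkd2, Notum, Rnf43, Znrf3, Lgr5 and Dkk1, are textbook feedback targets of WNT signalling. They were chosen by name, 9 of the 21938 protein-coding genes of the mouse annotation, and a peak was assigned to a gene when it overlapped the gene body or the 10000 bp on either side of it. The question put to them was whether direct WNT targets are occupied alike in the genotypes of the study. The data were peak lists from chromatin immunoprecipitation with sequencing (ChIP–seq), in which DNA bound by a protein is pulled down with an antibody and each peak marks a stretch of genome recovered in excess.

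Mouse embryonic stem cells were differentiated for 72 h, in medium that held 10 ng/ml bFGF and 5 uM LGK974, an inhibitor of WNT secretion, in all groups. CHIR99021 (CHIR), which inhibits GSK3 and so activates the pathway inside the cell, was either added from day 2 to day 3 or left out. The labels call all the cells epiblast-like, and the study names those given CHIR caudal epiblast-like cells. SOX2 was immunoprecipitated from wild-type (WT) cells without CHIR (noCHIR), and SOX2, β-catenin and LEF1 from WT, T/BraKO (T/Bra-/-) and CdxKO (mutant for Cdx1, Cdx2 and Cdx4) cells with CHIR. This gave 10 groups of 3 biological replicates, 30 peak lists in all, while 12 input libraries were not analysed here. All lines descend from the HM1 TetON line of the 129 background, which served as WT. Each genotype is a cell line of its own and the number of clones is not given in the sources used here, so genotype and line cannot be told apart. All sample labels carry the same experiment tag, so they offer no split into batches. The study's methods, however, state that the triplicates of each condition came from separate experiments. Which libraries shared an experiment is not given in the sources used here. Peak lists hold no expression, and the labelled cell type and the loss of CDX or T/BRA could not be checked against markers.

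In canonical WNT signalling, β-catenin escapes the destruction complex, enters the nucleus and binds DNA through the TCF/LEF factors, of which LEF1 is one. Many of the genes it switches on restrain the pathway again: AXIN2 is a scaffold of the destruction complex, NKD1 and NKD2 bind Dishevelled, NOTUM and DKK1 are secreted inhibitors, RNF43 and ZNRF3 are ubiquitin ligases that remove Frizzled receptors, and SP5 is a zinc finger repressor. LGR5 is a receptor for R-spondins, which hold RNF43 and ZNRF3 in check. SOX2 is an HMG-box factor of pluripotent and neural cells, CDX factors and T/BRA act in the posterior embryo downstream of WNT, and the HMG boxes of SOX and TCF/LEF proteins read similar letters.

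The sequences that the results below turn on lay under the best β-catenin peak of 6 of the 9 genes. They are given for build GRCm38/mm10, read on the plus strand from the reference, and capitals mark the letters CTTTGAA or CTTTGAT of a TCF/LEF motif on either strand. The Sp5 and Dkk1 stretches lie in a UTR exon and are cut to 30 bases, the Axin2 and Znrf3 stretches lie in introns, and the Nkd1 stretch is intergenic.
Sp5 chr2:70474962-70474991: agctttgtggaTTCAAAGgatttgctttcg
Sp5 chr2:70475001-70475030: gagccgctattCTTTGATgattgggtagcg
Axin2 chr11:108921186-108921286: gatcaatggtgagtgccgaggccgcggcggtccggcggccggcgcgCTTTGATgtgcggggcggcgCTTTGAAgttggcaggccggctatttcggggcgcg
Znrf3 chr11:5411749-5411849: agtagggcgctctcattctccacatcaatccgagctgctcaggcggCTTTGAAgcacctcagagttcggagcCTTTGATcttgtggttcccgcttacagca
Nkd1 chr8:88604075-88604175: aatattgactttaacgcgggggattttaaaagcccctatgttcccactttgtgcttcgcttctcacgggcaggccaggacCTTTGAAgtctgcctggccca
Dkk1 chr19:30549596-30549625: cgggatgggatTTCAAAGctttgggaggag
At Axin2 and at Znrf3 a first motif began 4 bp before the summit, the position of the highest pileup, and a second began 16 bp and 22 bp after it. The best β-catenin regions of Rnf43, Notum and Nkd2 held no match to any motif searched within 100 bp of the summit, and are not shown. At Lgr5 the best β-catenin region was in an intron and held none of the TCF/LEF letters within 100 bp of its summit. It did hold, in capitals, the octamer ATGCAAAT known from POU factors, a motif added to the search after the letters of this region were seen.
Lgr5 chr10:115469155-115469255: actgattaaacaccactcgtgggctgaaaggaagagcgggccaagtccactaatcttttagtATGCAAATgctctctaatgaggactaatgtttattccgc

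The lists differed widely in length, from 26940 peaks (SOX2 T/BraKO replicate 3) to 1008922 (SOX2 WT CHIR replicate 1), although each ended near the same q-value. Peaks were therefore ranked within each list by their q-value, with rank 1 the best, and the 20000 best of each list were compared. Rank 20000 fell at a −log10 q from 3.26 (SOX2 T/BraKO replicate 3) to 14.14 (SOX2 WT CHIR replicate 1). The limit was thus not equally strict in all lists. In the windows of the 9 genes together, the full lists held 38 to 344 SOX2 peaks, 56 to 228 β-catenin peaks and 99 to 312 LEF1 peaks per library. Among the 20000 best they held 15 to 31 (median 27), 35 to 46 (median 40) and 17 to 28 (median 22), so the limit removed most of the spread between libraries.

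β-catenin occupied the feedback genes in all 3 genotypes. A gene's level in a library is given as the rank of its best peak, and 8 of the 9 genes, all but Nkd2, had one of the 20000 best β-catenin peaks in each of the 9 CHIR libraries, against 11.8% of all protein-coding genes. The same held for 6 of the 9 genes with SOX2 (Axin2, Sp5, Nkd1, Znrf3, Lgr5 and Dkk1), against 11.3% of all genes. With LEF1 it held for 4 of the 9 (Axin2, Sp5, Nkd1 and Znrf3), against 5.02%. For tests the rank was turned into a score, log2 of 20000 plus 1 divided by the rank, set to 0 where none of the 20000 best peaks lay in the window. A difference of 1 in this score is a change of 2-fold in rank, and a higher score is a better rank. The median over the 9 genes of the mean score in CHIR libraries was 4.62 for β-catenin, 3.03 for SOX2 and 3.70 for LEF1, beside 0.189, 0.305 and 0.451 over all genes. The gene windows ran from 22807 bp (Sp5) to 188524 bp (Znrf3) and a longer window has more room for a good peak, so genes were not tested against each other.

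**Figure D1:**
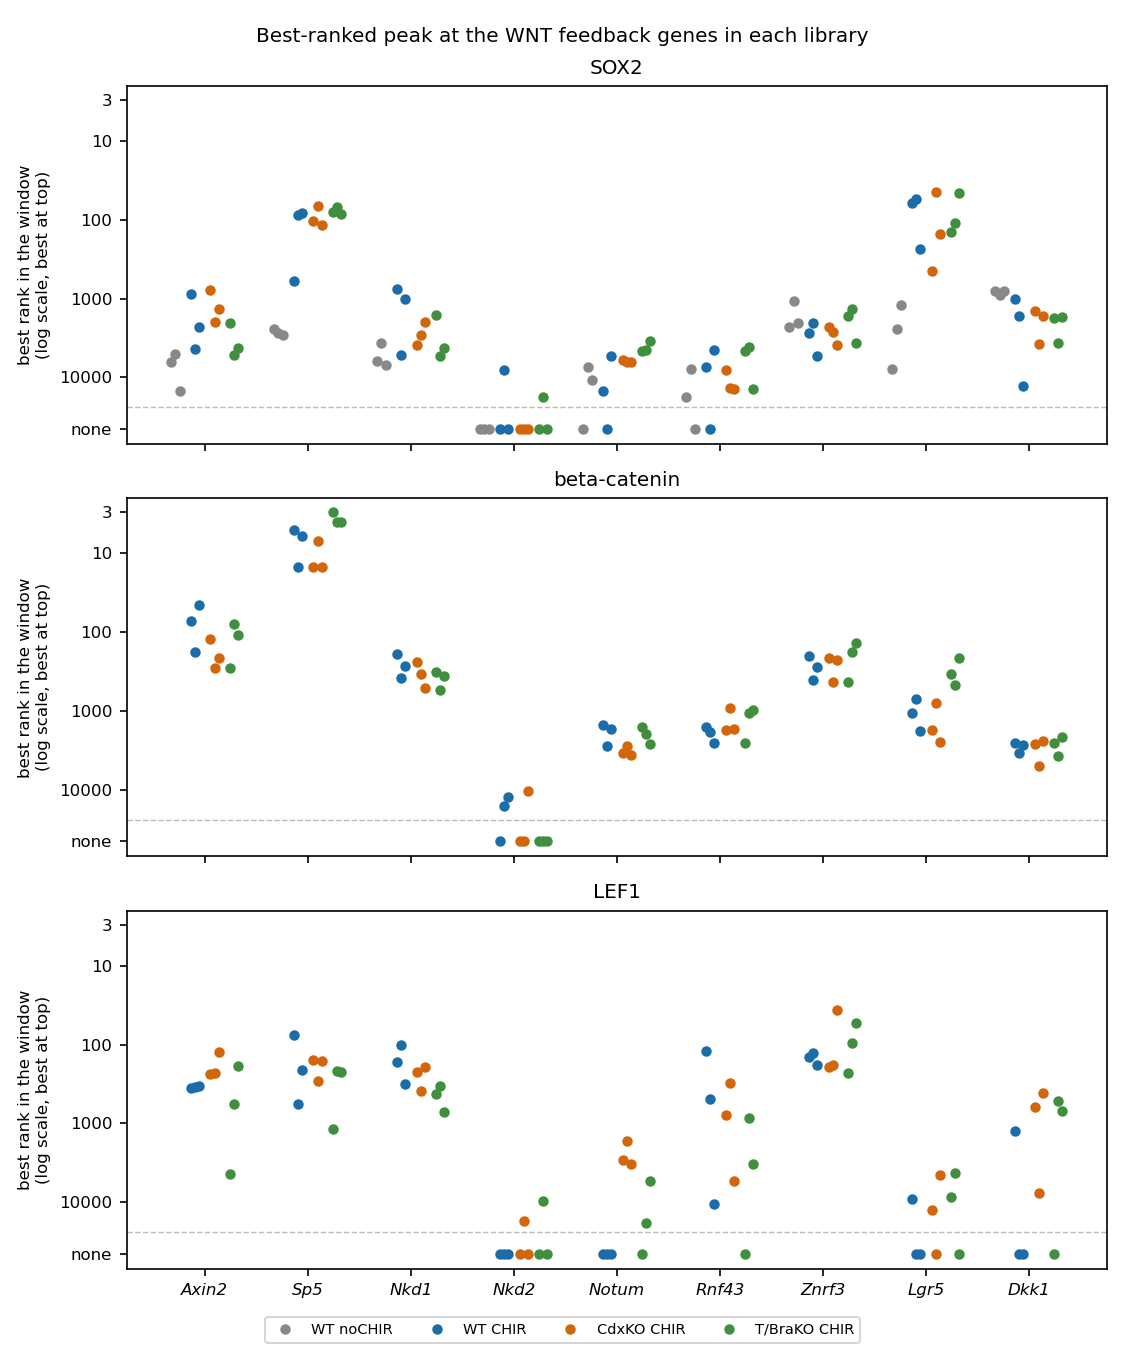
Rank of the best peak (vertical log axis, rank 1 at the top) for each of the 9 genes in every library of SOX2, β-catenin and LEF1, with points on the line marked none where no peak of the 20000 best lay in the window. The β-catenin ranks of Sp5 run from 3 to 15 in all genotypes, while the SOX2 ranks of Sp5 and Lgr5 without CHIR sit apart from those with CHIR.

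The order of the genes by mean β-catenin score was Sp5, Axin2, Znrf3, Nkd1, Lgr5, Rnf43, Notum, Dkk1 and Nkd2. The ranks of Sp5 and Axin2 did not overlap, those of each later pair of neighbours down to Dkk1 did. Over all protein-coding genes, 3 had a higher mean β-catenin score than Sp5, and Axin2, Znrf3 and Nkd1 stood at percentiles 99.7, 99.3 and 99.1. Lgr5, Rnf43, Notum and Dkk1 followed at 97.9, 96.4, 94.9 and 93.6, and Nkd2 stood at 53.5. For SOX2, Sp5 and Lgr5 both stood at percentile 99.7, and for LEF1 the highest of the 9 was Znrf3 at 99.8.

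Sp5 (ENSMUSG00000075304.2, chr2:70474923-70477729, plus strand) had the best β-catenin peak of the group, 11 bp downstream of the gene start. Its ranks were 5, 15 and 6 in WT, 15, 7 and 15 in CdxKO and 3, 4 and 4 in T/BraKO. The fold enrichment over background that the authors' peak caller gave it was 164, 100 and 210 in WT, 143, 148 and 169 in CdxKO, and 185, 162 and 97.0 in T/BraKO. All T/BraKO ranks were thus ahead of all WT ranks, while the fold enrichments of the groups overlapped. LEF1 ranked Sp5 at 75, 577 and 208 in WT, 159, 287 and 160 in CdxKO, and 1170, 217 and 223 in T/BraKO, with overlapping groups. SOX2 ranked it at 2442, 2691 and 2876 without CHIR and at 604, 86 and 83 with CHIR in WT. In CdxKO the SOX2 ranks were 102, 67 and 117 and in T/BraKO 80, 68 and 84, so the noCHIR libraries were the only SOX2 libraries with Sp5 behind rank 604. A further site 2736 bp upstream carried β-catenin in all 9 libraries as well, at ranks between 108 and 437.

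Axin2 (ENSMUSG00000000142.15, chr11:108920349-108950783, plus strand) carried its best β-catenin peak in an intron, 887 bp downstream of the gene start, on the paired motifs shown above. Ranks were 72, 181 and 45 in WT, 121, 282 and 214 in CdxKO, and 288, 79 and 109 in T/BraKO. The best LEF1 ranks were 354, 348 and 332 in WT, 239, 227 and 125 in CdxKO, and 4381, 567 and 187 in T/BraKO. Both factors placed Axin2 within their 5000 best peaks in every CHIR library, and the 3 CdxKO ranks of LEF1 were ahead of the 3 WT ranks. The best SOX2 ranks were 6298, 5098 and 14868 in WT noCHIR, 876, 4308 and 2308 in WT CHIR, 783, 1989 and 1344 in CdxKO, and 2067, 5229 and 4184 in T/BraKO. Here too the noCHIR ranks lay behind the WT CHIR ranks over the whole window, by a smaller margin than at Sp5. The Axin2 ranks did not all come from the same site. That of noCHIR replicate 1, 6298, was at an intronic site 8590 bp from the start, taken up below.

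The ligase gene Znrf3 (ENSMUSG00000041961.14, chr11:5276324-5444847, minus strand) was occupied by β-catenin best at an intronic site 33048 bp downstream of its start. The best β-catenin ranks in the window were 198, 409 and 278 in WT, 212, 423 and 227 in CdxKO, and 423, 180 and 136 in T/BraKO. LEF1 ranked it at 145, 127 and 182 in WT, 195, 183 and 36 in CdxKO, and 229, 97 and 53 in T/BraKO. For both factors the genotypes overlapped. The promoter of Znrf3, 8 bp from the start, was among the 20000 best β-catenin peaks in all 9 libraries (ranks 324 to 1283), and among the LEF1 libraries this site was among them in T/BraKO replicate 3 (rank 4899). A second LEF1 region near the start, 791 bp into the gene, was among the 20000 best in 1 WT library. SOX2 ranks at the gene were 2277, 1076 and 2033 without CHIR, 2749, 2015 and 5409 in WT CHIR, 2321, 2612 and 3885 in CdxKO, and 1646, 1362 and 3701 in T/BraKO. Those of the noCHIR and WT CHIR groups overlapped.

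Rnf43 (ENSMUSG00000034177.15, chr11:87662722-87735539, plus strand), the other ligase gene, had its best β-catenin site in an intron 63388 bp downstream of the start. β-catenin ranks were 1591, 1842 and 2563 in WT, 1735, 907 and 1718 in CdxKO, and 2554, 1051 and 980 in T/BraKO. LEF1 ranks were far less even, at 120, 497 and 10690 in WT, 790, 312 and 5431 in CdxKO, and none, 861 and 3310 in T/BraKO, where the full list of replicate 1 placed it at 38966. SOX2 ranks ran from 4088 to 17713, with no peak among the 20000 best in WT noCHIR replicate 3 and WT CHIR replicate 2. The window of Rnf43 also touches Hsf5 and Supt4a.

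Nkd1 (ENSMUSG00000031661.12, chr8:88521354-88594884, plus strand) was bound best beyond its 3′ end, 82771 bp from the start. β-catenin ranks there were 191, 382 and 270 in WT, 241, 344 and 513 in CdxKO, and 317, 537 and 355 in T/BraKO. LEF1 ranks were 169, 102 and 316 in WT, 223, 390 and 192 in CdxKO, and 429, 340 and 709 in T/BraKO, and all T/BraKO ranks were behind all WT ranks. Its relative Nkd2 (ENSMUSG00000021567.15, chr13:73818534-73847631, minus strand, with Slc12a7 in the window) was the exception among the 9. It had a β-catenin peak among the 20000 best in WT replicates 2 and 3 (ranks 16103 and 12209) and CdxKO replicate 3 (rank 10262) and in no T/BraKO library. LEF1 reached it in CdxKO replicate 2 (rank 17568) and T/BraKO replicate 2 (rank 9555), and SOX2 in WT CHIR replicate 2 (rank 7947) and T/BraKO replicate 2 (rank 17752).

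Lgr5 (ENSMUSG00000020140.15, chr10:115450311-115587780, minus strand, with A930009A15Rik in the window) had SOX2 and β-catenin in all 9 CHIR libraries and LEF1 in 5 of them. At the intronic site 118575 bp from the start, SOX2 stood at ranks 11551, 2461 and 1216 without CHIR. With CHIR it stood at 61, 55 and 235 in WT, 450, 44 and 151 in CdxKO, and 142, 109 and 45 in T/BraKO, all ahead of the noCHIR libraries. Over the whole window the noCHIR ranks were 7703, 2461 and 1216. β-catenin ranks were 1071, 696 and 1804 in WT, 1753, 787 and 2476 in CdxKO, and 338, 463 and 213 in T/BraKO, with all T/BraKO libraries ahead of all others. LEF1 had no peak among the 20000 best at this intronic site in any library, and its full-list ranks there were 71967 to 392929 where it had a peak at all. In the whole window LEF1 reached the 20000 best in 1 WT, 2 CdxKO and 2 T/BraKO libraries.

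The secreted lipase gene Notum (ENSMUSG00000042988.10, chr11:120653788-120661175, minus strand, with Myadml2 in the window) had β-catenin ranks of 1499, 2803 and 1712 in WT, 3393, 2752 and 3641 in CdxKO, and 1594, 1963 and 2622 in T/BraKO. One of its regions bound in all 9 libraries lay 458 bp into the gene. The other lay 12728 bp from the start, past the gene's end, and its summit was within 1000 bp of a Myadml2 transcript start. SOX2 ranks were none, 7313 and 10790 without CHIR, 14706, none and 5350 in WT CHIR, 6038, 6341 and 6348 in CdxKO, and 4681, 4550 and 3464 in T/BraKO. LEF1 had no peak among the 20000 best in WT, ranks of 2940, 1669 and 3329 in CdxKO, and none, 18326 and 5408 in T/BraKO. In the full lists the WT ranks were 24788, 40186 and 108591 and that of T/BraKO replicate 1 was 64587.

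Dkk1 (ENSMUSG00000024868.8, chr19:30545863-30549665, minus strand), which encodes an inhibitor of LRP coreceptors, had a worse SOX2 rank in each WT CHIR library than in any noCHIR library. Its best SOX2 ranks were 792, 904 and 800 without CHIR, 1017, 1638 and 12882 in WT CHIR, 1418, 3739 and 1667 in CdxKO, and 1759, 3645 and 1695 in T/BraKO. These came mostly from a site 4225 bp upstream that held a SOX2 peak among the 20000 best in 12 of 12 libraries. β-catenin instead had its all-library region at the promoter, 64 bp from the start, where ranks were 2553, 3443 and 2722 in WT, 2640, 5016 and 3770 in CdxKO, and 2537, 3767 and 2129 in T/BraKO. The genotypes overlapped there. At that promoter the SOX2 ranks in the full lists were 10404, 1395 and 4981 without CHIR, 21079, 77764 and 18811 in WT CHIR, 1418, 10745 and 2523 in CdxKO, and 5146, 3645 and 1695 in T/BraKO. The 3 WT CHIR libraries were thus the last of the 12. In the fit over single regions described below, WT CHIR minus noCHIR was -2.23, WT minus CdxKO -2.54 and WT minus T/BraKO -2.44. None of these passed (limma adjusted p = 0.13, 0.32 and 0.45). LEF1 ranks at Dkk1 were 1267, none and none in WT, 619, 7691 and 418 in CdxKO, and none, 528 and 689 in T/BraKO.

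Overlapping peaks of the libraries of 1 factor, sharing 1 bp or more, were joined into regions. In the windows of the 9 genes, 14 of 90 β-catenin regions (15.6%, Wilson 95% interval 9.5% to 24.4%) were among the 20000 best in all 9 CHIR libraries, beside 3.02% of all β-catenin regions. They were 3 at Axin2, 3 at Znrf3, 2 at Sp5, 2 at Notum and 1 each at Nkd1, Rnf43, Lgr5 and Dkk1. For LEF1 it was 5 of 107 regions (4.67%, 2.01% to 10.5%) beside 0.139% of all, namely 2 at Sp5 and 1 each at Axin2, Nkd1 and Znrf3. For SOX2 it was 4 of 85 regions (4.71%, 1.85% to 11.5%) beside 1.43% of all, with 2 at Sp5, the Lgr5 intron and the upstream Dkk1 site. Leaving out SOX2 WT CHIR replicate 2 raised the SOX2 share to 9.09%. Regions of 1 gene share that gene and merged regions differ in width, so these intervals cover counting error only.

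**Figure D2:**
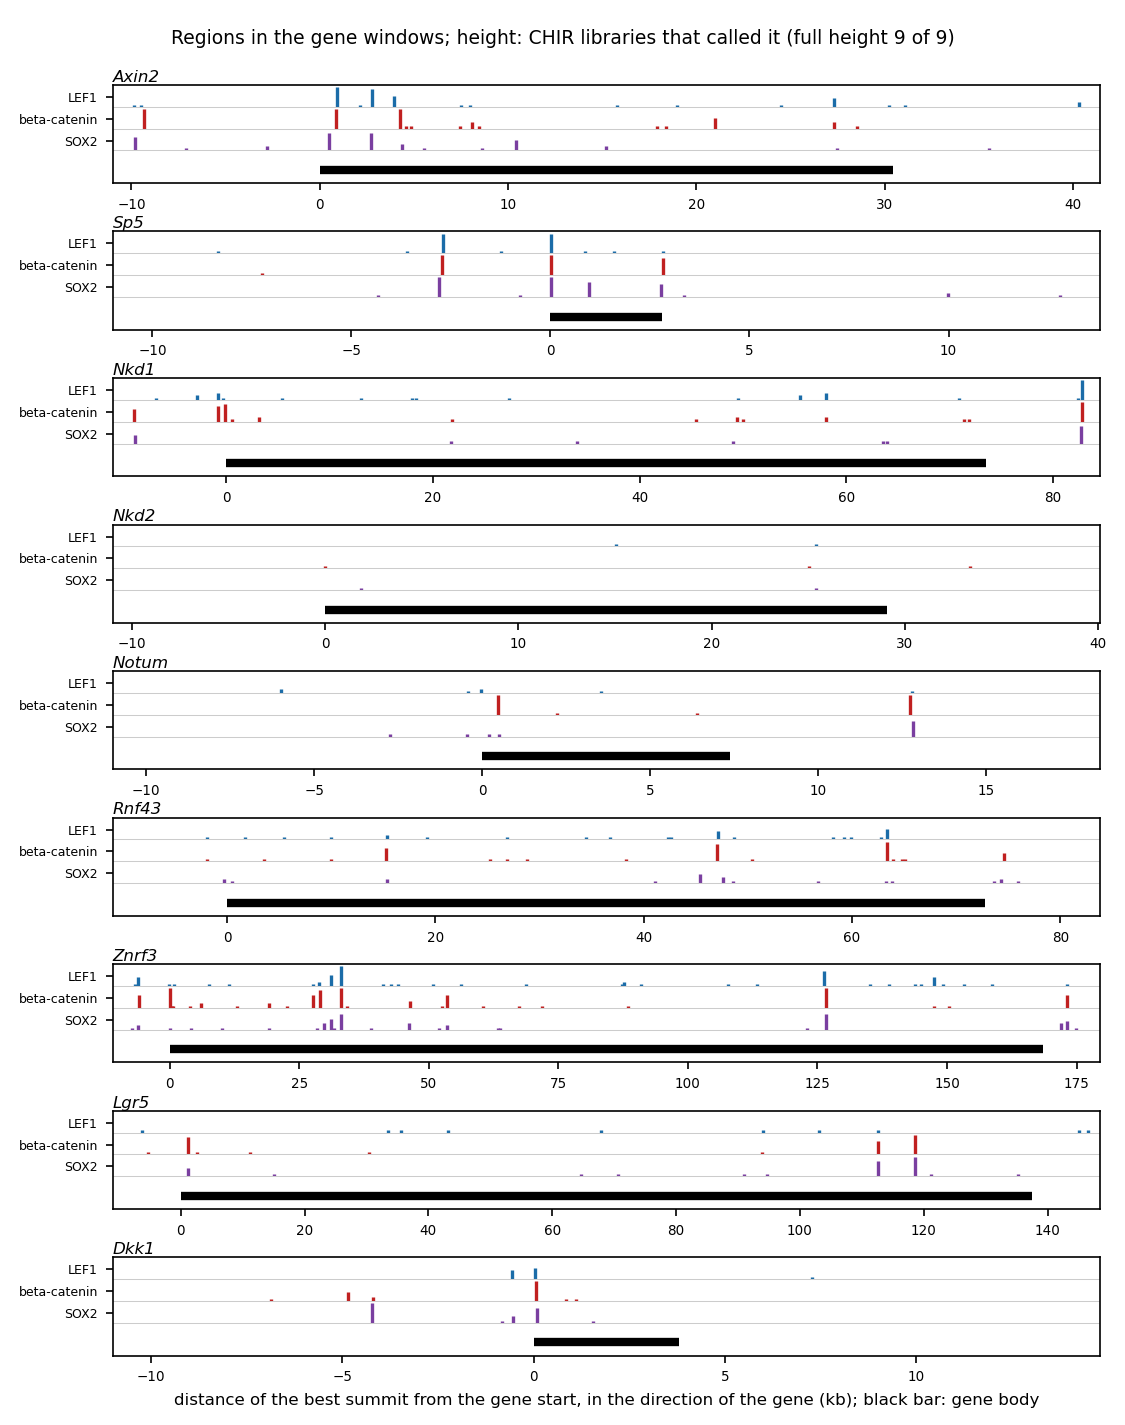
Map of the merged regions in the windows of the 9 genes by distance from the gene start in kb, where the height of each mark is the number of CHIR libraries, out of 9, with one of the 20000 best peaks there and the black bar is the gene body. β-catenin marks reach 9 at 3 places each in Axin2 and Znrf3, while at Lgr5 the β-catenin and SOX2 marks that reach 9 share the intron 118575 bp from the start.

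The first comparison asked what CHIR did to SOX2 at these genes in WT cells. SOX2 moved up the ranking at Sp5 and at Lgr5. The mean score at Sp5 was 6.94 ± 1.64 with CHIR and 2.91 ± 0.12 without (SD, n = 3 each), a difference of 4.03 (95% interval 2.36 to 5.71, limma adjusted p = 0.00288). At Lgr5 it was 7.76 ± 1.17 against 2.81 ± 1.34, a difference of 4.95 (3.09 to 6.80, limma adjusted p = 0.000931). These 2 were called of 8 members tested, beside 3.5% of the 13731 genes tested, Nkd2 being left out because fewer than 3 SOX2 libraries had a peak there. Of the 480 genes called in all, 148 were higher and 332 lower with CHIR, and both members were among the higher ones.

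Axin2 and Nkd1 had higher mean scores with CHIR by 1.93 (0.30 to 3.55, limma adjusted p = 0.195) and 1.79 (0.14 to 3.44, adjusted p = 0.246), which did not pass. Dkk1 had a lower one, by -1.74 (-3.47 to -0.02, adjusted p = 0.285), and without WT CHIR replicate 3 this difference was -0.64. For Znrf3, Rnf43 and Notum the differences were -0.86, 0.68 and 0.00. The ranks of the groups did not overlap at 4 members (Sp5, Lgr5, Axin2 and Dkk1), beside 16.3% of all genes tested. The median difference over the 8 members was 1.24, beside 0.14 over all genes. An exact permutation test of 3 libraries against 3 cannot give a two-sided p under 0.1.

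Comparing genotypes, no member was called between WT and CdxKO or between WT and T/BraKO for any of the factors, all of these comparisons sharing the WT libraries. For SOX2 against CdxKO, 0 of 8 members were called by limma (0 at an unadjusted p under 0.05), beside 0.0583% of all genes, and groups did not overlap at 0 members, beside 9.95%. The differences, WT minus CdxKO, ran from -0.90 at Notum to 0.85 at Nkd1, and their 95% intervals reached from -2.49 to 2.51. For SOX2 against T/BraKO, 0 of 8 were called (0 unadjusted), beside 0.0% of all genes. Groups did not overlap at 1 member, Notum, beside 8.39%, where WT minus T/BraKO was -1.47 (-2.99 to 0.05), and the other intervals stayed between -2.76 and 2.73. Over the 3 genotypes together, limma's F test called 0 of 8 members (0 unadjusted), beside 0.0947%, and the smallest p of the exact permutation test over the 280 partitions of the 9 libraries was 0.0929. A p above the threshold does not show that the genotypes were alike, and intervals of this width leave room for differences of several fold in rank.

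For β-catenin against CdxKO, 0 of 9 members were called by limma (0 unadjusted), beside 0.858% of all genes tested, and groups did not overlap at 0 members, beside 10.8%. Axin2 had the largest difference, 1.21 higher in WT (-0.02 to 2.45, adjusted p = 0.609), and over all 9 the intervals reached from -1.66 to 2.45. Against T/BraKO, 0 of 9 were called (1 unadjusted), beside 2.23%, and groups did not overlap at 2, Lgr5 and Sp5, beside 13.3%. WT minus T/BraKO was -1.78 at Lgr5 (-2.94 to -0.62, adjusted p = 0.111) and -1.08 at Sp5 (-2.68 to 0.53, adjusted p = 0.706).

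Over the 3 genotypes, limma's F test on β-catenin called 1 of 9 members, Lgr5 (adjusted p = 0.0185), beside 4.23% of all genes. Its mean score was 4.18 ± 0.69 in WT, 3.73 ± 0.85 in CdxKO and 5.96 ± 0.56 in T/BraKO (SD, n = 3 each), so that the mean in T/BraKO was the highest. The exact permutation test over 280 partitions gave p = 0.025 for Lgr5 and p = 0.0464 for Sp5, neither corrected for the 9 members, where the smallest it can give is 0.00357. The call for Lgr5 was lost without CdxKO replicate 1 or 3 and without T/BraKO replicate 1 or 3, with adjusted p up to 0.19 among the settings that left out a library. It was made in 11 of 18 settings, with adjusted p from 0.00292 to 0.214.

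LEF1 comparisons had the widest intervals. Against CdxKO, 0 of 8 members were called by limma (1 unadjusted), beside 0.0% of all genes, and groups did not overlap at 2, Notum and Axin2, beside 7.23%. WT minus CdxKO was -2.98 at Notum (-5.31 to -0.65, adjusted p = 0.975), a size set in part by the limit of 20000, since all WT ranks there were behind it, and -0.86 at Axin2 (-3.79 to 2.07). Against T/BraKO, 0 of 8 were called (0 unadjusted), beside 0.0383%, and groups did not overlap at 1, Nkd1, beside 7.15%, with a difference of 1.42 (-1.42 to 4.25). The intervals of the members reached from -5.57 to 3.40 against CdxKO and from -4.95 to 5.21 against T/BraKO. The F test over genotypes called 0 of 8 (1 unadjusted, Notum, adjusted p = 0.881), beside 0.0459%, and the exact permutation p for Notum was 0.0143, not corrected for the 9 members.

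**Figure D3:**
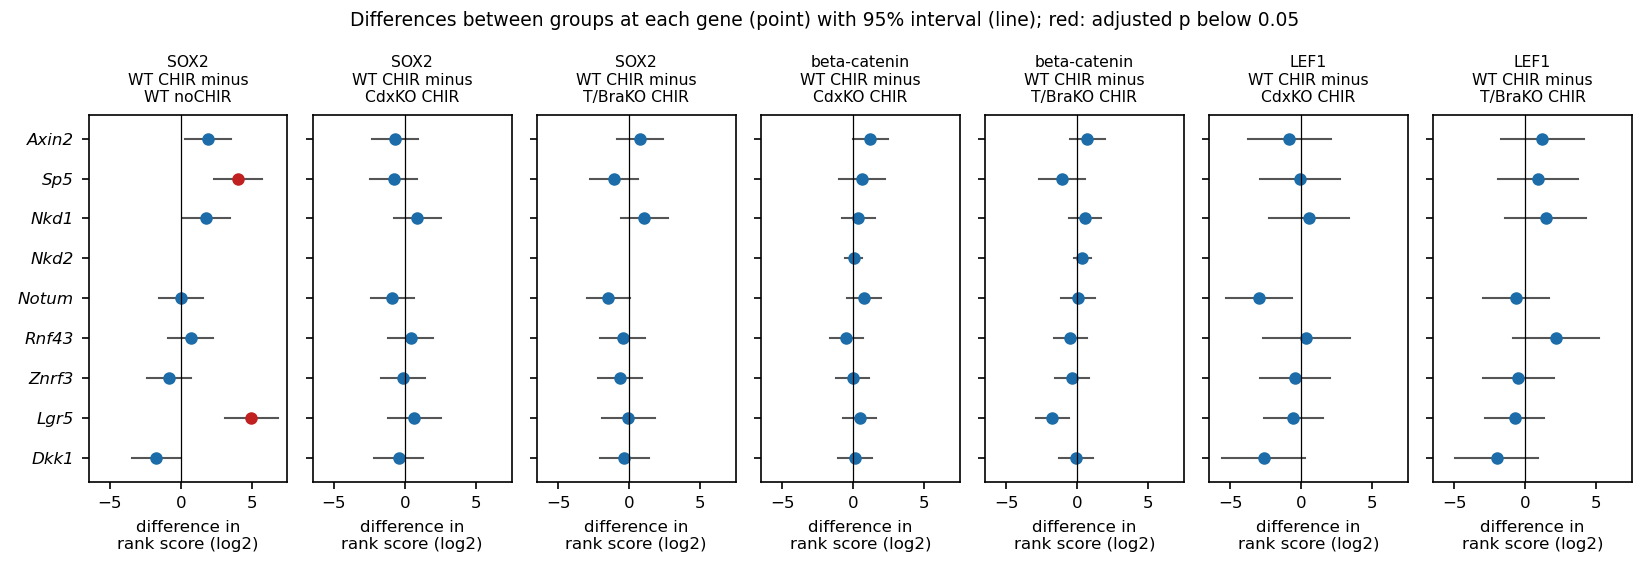
Differences in mean score for each of the 9 genes in the 7 comparisons of 2 groups (points, log2 scale of rank) with 95% intervals from limma (lines), red where the adjusted p was under 0.05. The only red points are Sp5 at 4.03 and Lgr5 at 4.95 for SOX2 with against without CHIR, and the LEF1 intervals are the widest.

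The same model was fitted to single regions in place of gene windows, an alternative chosen after the data were seen. For SOX2 with against without CHIR, 12.2% of 20099 regions were called, and 2 of the 32 member regions tested. These were the Lgr5 intron (chr10:115468783-115469602), with a difference of 5.14 (3.00 to 7.28, limma adjusted p = 0.00458), and the Sp5 start (chr2:70474448-70475283), with 4.10 (2.40 to 5.80, adjusted p = 0.00447). Over the genotypes with β-catenin, 7.67% of 15600 regions were called, and 2 of the 33 member regions tested. As shares of the regions tested, both counts of members are below these percentages. One was the Lgr5 intron (adjusted p = 0.012). The other lay beyond the 3′ end of Znrf3 (chr11:5271391-5272132, adjusted p = 0.0386), with full-list ranks of 7485, 2805 and 162183 in WT, 32511, none and 6989 in CdxKO, and 2649, 2128 and 1493 in T/BraKO. The T/BraKO libraries were ahead of all others there. Neither region passed in the comparison of WT with T/BraKO alone. WT minus T/BraKO was -1.88 at the Znrf3 site (limma adjusted p = 0.22) and -1.78 at the Lgr5 intron (adjusted p = 0.0953). Neither passed between WT and CdxKO.

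A few member regions were among the 20000 best in all libraries of 1 group and in none of another. For β-catenin, 1 of 76 regions was so placed in WT against CdxKO, beside 0.506% of all regions, an intronic site of Znrf3 53420 bp from the start (chr11:5390970-5391783). Its ranks were 5188, 5047 and 5436 in WT, none, 25125 and 84220 in CdxKO, and 4381, 4075 and 8811 in T/BraKO. As a score, WT minus CdxKO was 1.94 (0.34 to 3.54), which did not pass correction over regions (limma adjusted p = 0.358). The 201 bases around its summit, on the plus strand, held 1 TCF/LEF match, in capitals, 1 match to the SOX letters on the minus strand 85 bp after the summit, and none of the CDX letters searched.
Znrf3 chr11:5391327-5391527: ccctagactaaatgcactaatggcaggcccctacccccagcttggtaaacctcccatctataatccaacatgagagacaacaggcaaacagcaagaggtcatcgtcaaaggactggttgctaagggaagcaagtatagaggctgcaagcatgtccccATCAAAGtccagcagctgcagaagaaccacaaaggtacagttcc
For SOX2, 2 of 52 regions were among the 20000 best in all 3 noCHIR and in no WT CHIR libraries, beside 3.89% of all regions. One was this same Znrf3 intron (ranks 8368, 4343 and 11747 without CHIR, and 189132, none and 26516 with it). The other was an intronic site of Axin2 8590 bp from the start (6298, 8378 and 16596, and 1005371, none and none). As scores, CHIR minus noCHIR was -1.41 and -1.06 there, and neither passed (limma adjusted p = 0.155 and 0.0939). In the reverse direction, 0 of 52 regions were among the 20000 best in all 3 WT CHIR and in no noCHIR libraries, beside 0.146% of all regions. Between WT and T/BraKO with CHIR, 2 of 68 SOX2 regions were among the 20000 best in all 3 T/BraKO and in no WT libraries, beside 0.719%. They were the site beyond Znrf3 named above (3103, 4983 and 11097 in T/BraKO, and 97942, none and 62648 in WT) and a Rnf43 site 45405 bp from the start (10062, 14429 and 14188, and none, none and 85574). WT minus T/BraKO was -1.85 and -0.65 at these sites, and neither passed (limma adjusted p = 0.36 and 0.412). In the reverse direction, 0 of 68 regions were among the 20000 best in all 3 WT and in no T/BraKO libraries, beside 0.0447% of all regions. In these SOX2 comparisons, regions among the 20000 best in no WT CHIR library were thus the more frequent kind over the whole genome. SOX2 between WT and CdxKO had the same lean, with 0.955% of all regions only in CdxKO and 0.059% only in WT. Of the 67 member regions there, 0 were of either kind. The WT CHIR libraries are shared by all of these comparisons and the limit was not equally strict in all lists. The cause was not tested.

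**Figure D4:**
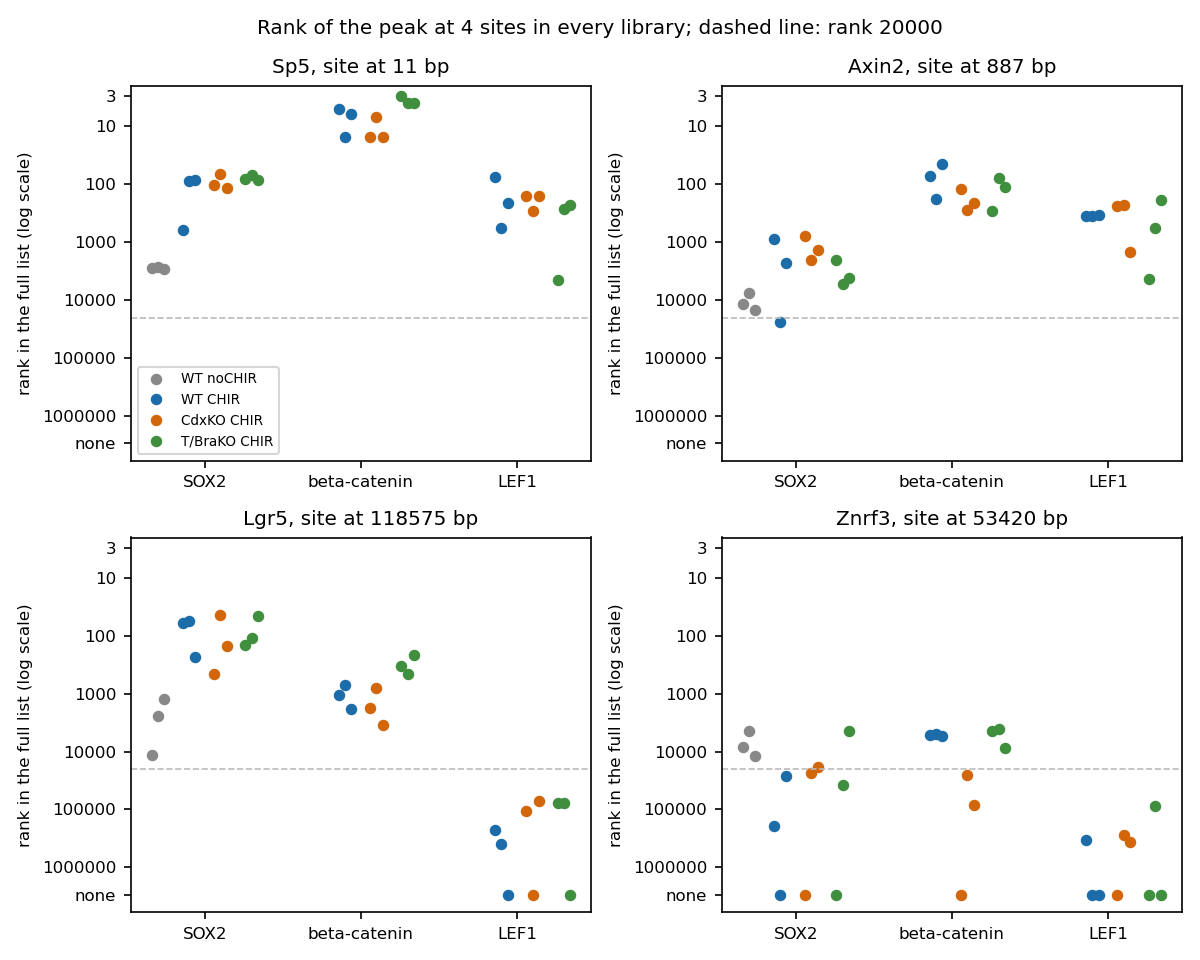
Full-list ranks (vertical log axis, rank 1 at the top, dashed line at rank 20000) of SOX2, β-catenin and LEF1 in every library at 4 sites, 11 bp from the start of Sp5, 887 bp from that of Axin2, 118575 bp from that of Lgr5 and 53420 bp from that of Znrf3. At the Lgr5 site LEF1 is behind the dashed line throughout, and at the Znrf3 site the CdxKO libraries of β-catenin are behind it while WT and T/BraKO are ahead.

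The regions of the feedback genes held TCF/LEF letters more often than regions at large did. Within 100 bp of the summit, 41.1% of the 90 β-catenin regions (Wilson 95% interval 31.5% to 51.4%) had CTTTGAA or CTTTGAT on either strand, beside 19.4% of all β-catenin regions. For LEF1 it was 38.3% (29.7% to 47.8%) beside 15.0%, and for SOX2 24.7% (16.8% to 34.8%) beside 10.7%. SOX letters (CCATTGT or CCTTTGT) were in 27.1% of the SOX2 regions beside 16.1%, in 13.3% of the β-catenin regions beside 9.82%, and in 12.1% of the LEF1 regions beside 8.23%. CDX letters (CAATAAA and CCATAAA, along with TAATAAA and also TCATAAA) were in 9.41%, 4.44% and 10.3% of SOX2, β-catenin and LEF1 regions, beside 14.6%, 13.3% and 14.8%. The T-box letters AGGTGTGA were in 0 of 85 SOX2 regions, 1.11% of β-catenin and 1.87% of LEF1 regions, beside 0.999%, 1.36% and 0.997%. The octamer was in 2.22% of the β-catenin regions beside 2.39%, in 1.18% of the SOX2 regions beside 2.59% and in 0.935% of the LEF1 regions beside 1.57%. Regions were not independent of each other, and these shares were not tested.

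**Figure D5:**
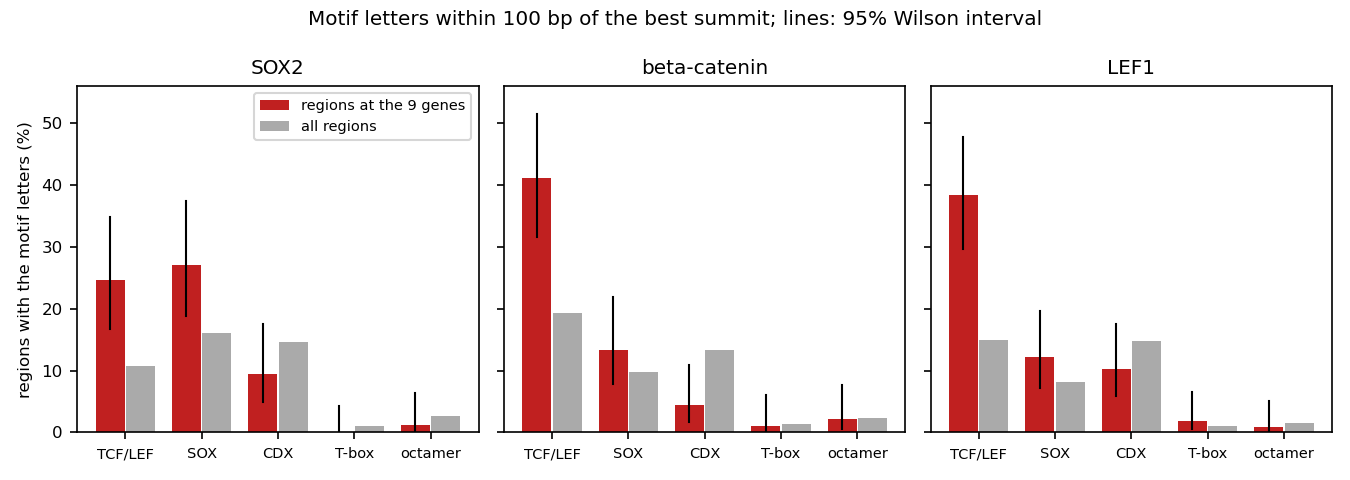
Share of regions (percent, vertical axis from 0) with each motif within 100 bp of the summit, for regions of the 9 genes and for all regions of each factor, with Wilson 95% intervals as lines. The TCF/LEF shares of the member regions, at 41.1%, 38.3% and 24.7% for β-catenin, LEF1 and SOX2, stand above those of all regions.

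For context, 41 other genes of the pathway were counted in the same fits. With SOX2, 1 of 36 tested was called with against without CHIR, the TCF gene Tcf7 (480, 1502 and 186 without CHIR, and 64, 73 and 24 with it), which was higher with CHIR by 3.41 (1.61 to 5.20, limma adjusted p = 0.0224). As a share, 1 of 36 is below the 3.5% of all genes tested. Lef1, the gene of the LEF1 factor itself, had -2.70 (adjusted p = 0.0957). With SOX2 between genotypes, 0 of 36 were called by limma in either comparison (5 and 2 unadjusted for CdxKO and T/BraKO, where 1492 and 1289 of all 13731 genes were so). The largest differences were at Lgr4 and Ctnnb1 for CdxKO (-2.50 and 1.79) and at Lef1 and Rspo3 for T/BraKO (-1.47 and -1.26).

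The receptor gene Fzd10 was the 1 of 33 called for β-catenin between WT and CdxKO, beside 0.858% of all genes, at ranks of 73, 127 and 121 in WT, 1121, 819 and 1286 in CdxKO, and 74, 114 and 82 in T/BraKO. WT was 3.35 higher than CdxKO (2.21 to 4.49, limma adjusted p = 8.92e-05), and the 3 CdxKO ranks lay behind all the others. The next largest, at Fzd7, was 1.20 (adjusted p = 0.647). Against T/BraKO, 0 of 33 were called (5 unadjusted, beside 1093 of all 11185 genes), with the largest differences at the R-spondin genes Rspo2 (-1.95, adjusted p = 0.151) and Rspo1 (-1.85, adjusted p = 0.152).

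By limma, LEF1 gave 0 calls of 32 against CdxKO (5 unadjusted, beside 495 of all 13071 genes) and 2 of 32 against T/BraKO, beside 0.0383% of all genes. The inhibitor gene Dkk4 ranked 281, 315 and 359 in WT, 12164, none and none in CdxKO, and none in the 3 T/BraKO libraries, a difference of 5.74 from CdxKO (adjusted p = 0.163) and of 5.98 from T/BraKO (limma adjusted p = 0.0369), sizes that depend on the limit of 20000. Tcf7l1, which encodes a TCF that mostly represses, ranked 274, 3 and 213 in WT, 9, 73 and 1 in CdxKO, and 14, 8 and 1 in T/BraKO, a difference of -3.54 from T/BraKO (limma adjusted p = 0.00684). Tcf7 had 3.77 against T/BraKO (adjusted p = 0.923) and Lef1 -2.99 against CdxKO (adjusted p = 0.975).

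Other genes had score profiles close to those of the members over the 30 libraries. By mean absolute difference in score, the nearest to the median profile of the 9 genes were Efnb1 (0.954), Epp13 (0.997) and Wwox (1.01), where the median over 21929 genes was 3.41. Nearest to Axin2 were C77080 (0.988), Dydc2 (1.16) and Dydc1 (1.16), against a median of 4.68. Neighbouring genes can share a window and so a peak.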

How the data were processed

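The data were 30 peak lists, one per immunoprecipitated library, that the authors made from single-end reads with MACS2 on mm10 and deposited with no pooling of replicates. The deposited columns were a ratio (fold enrichment over background at the summit), −log10 p-values and −log10 q-values. No read counts were used, so read depth is unknown, the precision rests on 3 replicates per group, and the count test of the study's methods was replaced by a test on ranks. Which input library served which list is not given in the sources used here.

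Peaks were ordered by −log10 q, and ties were broken by −log10 p, fold enrichment and position in turn. Gene windows came from the GENCODE annotation of GRCm38 in the reference, and sequences from its genome, whose chromosomes were all longer than the furthest peak. Scores were fitted with limma 3.58.1 in R 4.3.3 (moderated tests with an intensity trend) over all protein-coding genes with one of the 20000 best peaks in at least 3 libraries of the factor, and p-values were adjusted by Benjamini-Hochberg over all genes fitted, with a threshold of 0.05. Exact permutation tests were two-sided and over libraries. Python 3.11.15, pandas 2.3.3, scipy 1.17.1, pysam 0.24.0 and matplotlib 3.10.9 were used for the rest. The 9 genes, the 41 other pathway genes, the motifs and the tests were chosen with earlier results of these data known. All 9 genes are named, and of the other pathway genes those called and the 2 with the largest difference in each comparison; sites were picked after their values were seen. In simulated data with shifts of 4 and no floor at 0, the fit called 82% to 90% of shifted genes for SOX2 and β-catenin contrasts of that sign. For LEF1 it called 34% to 36%. Replicates are labelled as biological replicates.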

Additional observations from a re-analysis of the deposited data

How the results depend on the processing

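A value was counted as moved when a count of members changed by more than 1.5 times, or a share left the 95% interval of its main value. By that rule 228 values of the main results under alternatives stayed and 18 moved. These values were counts and shares, which have no direction. In most comparisons the count of members called was 0 in every setting, so many of the values that stayed were counts of 0. SOX2 at Sp5 and Lgr5 with against without CHIR was called in 21 of 21 settings, with differences from 1.46 to 4.98 and from 1.84 to 5.62, the lowest on quantile-normalised fold enrichment, a scale of another unit. The β-catenin genotype count of 1 (Lgr5) became 0 on that scale, 0 with no filter beyond 1 library, 2 over regions (an alternative added after seeing the data), and 0 to 1 when a library was left out. With the full lists, Sp5 was called in place of Lgr5, whose limma adjusted p was 0.0687. The share of member regions in all 9 libraries was, with the 5000 best peaks, 34.4% for β-catenin (beside 11.4% of all regions), 9.52% for LEF1 (beside 0.436%) and 7.41% for SOX2 (beside 4.82%). With full lists it was 4.20% (beside 0.565%), 0.75% (beside 0.0287%) and 1.94% (beside 0.277%). With summits required to lie within 150 bp of their median it was 10.0% (beside 2.60%), 2.80% (beside 0.117%) and 4.71% (beside 1.17%). When libraries were left out it ran from 15.9% to 19.3% (β-catenin), from 4.95% to 5.88% (LEF1) and from 4.82% to 9.09% (SOX2). TCF/LEF shares within 50 bp were 14.1% for SOX2 (beside 5.82% of all regions) and 22.4% for LEF1 (beside 8.98%), and within 200 bp 36.5% (beside 18.9%) and 48.6% (beside 23.3%). With the 5000 best peaks they were 68.8% (β-catenin), 61.9% (LEF1) and 44.4% (SOX2), beside 43.3%, 22.0% and 13.9% of all regions. The causes were not tested.

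The main fits did not pair libraries by replicate number. Same-numbered libraries correlated above 0.1 in 4 of 18 SOX2, 2 of 9 β-catenin and 0 of 9 LEF1 pairs. The highest of these correlations were 0.157, 0.205 and 0.049, beside 0.081, 0.156 and 0.039 among libraries of different numbers. Any pairing was thus weak, but for SOX2 and β-catenin it could not be taken as absent. With the replicate block, the members called for β-catenin between WT and T/BraKO became 1 (Lgr5, limma adjusted p = 0.0414). With 3 replicates and a simulated shift of 2, the fit called 28% to 40% of genes for SOX2 and β-catenin and 0% for LEF1. In such data a LEF1 difference of this size would go uncalled. The simulated scores had no floor at 0, unlike the real ones, so the shares do not carry over to genes without a peak in some libraries.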
